A study of Mus musculus with 16 samples.

Results

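The adrenergic receptor genes Adra1a, Adra1b, Adra1d and Adrb1 of the mouse were examined by name in embryonic atria and ventricles. The embryos were dKO, with Meis1 and Meis2 targeted for deletion in cardiomyocytes, or controls. All 4 names were present among the 16118 genes listed, and 3 of them reached a mean of at least 1 CPM (read counts scaled to library size) over the 16 libraries. They were chosen by their values in all 4 groups, so their levels and differences are given as a description, with standard errors and no p-value. Adra1b was the alpha1 receptor gene that was lower in dKO tissue of both chambers, Adra1d was higher in dKO atria and lower in dKO ventricles, and Adrb1 differed little anywhere.

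The dKO embryos were Meis1flox/flox; Meis2flox/flox; aMHC tg/wt and the controls Meis1flox/flox; Meis2flox/flox; aMHC +/+, 4 of each at E15.5 (embryonic day). Every embryo thus carried the floxed alleles of both genes, and only dKO embryos carried the Cre recombinase, which the promoter of alpha-myosin heavy chain drives in cardiomyocytes. The other cell types of the heart are not a target of this promoter, and the presence of Cre cannot be told apart from the deletion. Whether the deletion in these embryos was constitutive or inducible was not settled from the labels. Each embryo gave 1 atrial and 1 ventricular library, without the outflow tract. The labels name 4 litters, but only 3 numbers stand in the titles: 1 covers a single dKO embryo, 1 covers 2 dKO and 2 control embryos, and 1 covers 1 dKO and 2 control embryos.

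Adrenergic receptors are membrane receptors for noradrenaline and adrenaline. The alpha1 subtypes couple mainly to Gq, which activates phospholipase C and, through it, calcium release and protein kinase C. The beta1 subtype couples to Gs, which activates adenylyl cyclase, cAMP and protein kinase A, and it is the main receptor by which catecholamines raise the rate and force of the heart. In mice, most embryos that cannot make catecholamines die before birth, and many of those without the beta1 receptor do as well.

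Recovered reads, in megareads (M), were 7.88 to 23.0 M per library. The dKO ventricle libraries (7.88 to 14.3 M) all had fewer than the control ventricle libraries (15.6 to 23.0 M), whereas atria averaged 16.9 ± 2.54 M in dKO and 17.5 ± 1.98 M in control embryos (SD, n = 4 each). Of the targeted genes, Meis1 measured 64.5% of control in dKO atria (two-sided exact permutation p = 0.0286, the smallest possible with 4 against 4) and 98.5% in dKO ventricles (exact p = 0.83), and Meis2 measured 105% in dKO atria (exact p = 0.457) and 59.6% in dKO ventricles (exact p = 0.0286). These values take in reads from every exon, floxed or not. The chambers carried their own markers: Myl2, the ventricular myosin regulatory light chain, averaged 3158 CPM in ventricles of dKO embryos and 3903 CPM in those of controls, against 32.0 CPM in dKO and 22.5 CPM in control atria. Mybphl, an atrial myosin-binding protein, averaged 1.55 CPM in ventricles of dKO embryos and 1.78 CPM in those of controls, against 91.2 CPM in dKO and 130 CPM in control atria.

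Of the 4 genes, 2 had entries among RefSeq promoters (GRCm38.p6). The 250 bases before 3 annotated starts are shown because Adra1b, the gene lower in both dKO chambers, has a pair of starts that lie far apart and differ in base composition, and Adrb1, whose level moved least, resembles one of them. Capitals mark CG pairs, the sites at which DNA can be methylated in mammals. The first is the upstream start of Adra1b, chr11:43901238-43901487, minus strand, the second its downstream start, chr11:43836490-43836739, minus strand, and the third the start of Adrb1, chr19:56721867-56722116, plus strand, each written 5′ to 3′.
Adra1b, upstream start: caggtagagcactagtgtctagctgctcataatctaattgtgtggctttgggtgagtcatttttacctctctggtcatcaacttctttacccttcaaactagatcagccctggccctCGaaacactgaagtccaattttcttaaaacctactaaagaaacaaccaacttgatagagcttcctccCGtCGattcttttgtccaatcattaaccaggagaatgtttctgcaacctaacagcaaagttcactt
Adra1b, downstream start: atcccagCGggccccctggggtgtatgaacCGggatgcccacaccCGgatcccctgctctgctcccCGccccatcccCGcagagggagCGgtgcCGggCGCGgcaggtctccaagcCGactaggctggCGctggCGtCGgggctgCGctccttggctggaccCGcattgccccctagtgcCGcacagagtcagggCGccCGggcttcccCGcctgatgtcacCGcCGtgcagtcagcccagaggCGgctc
Adrb1: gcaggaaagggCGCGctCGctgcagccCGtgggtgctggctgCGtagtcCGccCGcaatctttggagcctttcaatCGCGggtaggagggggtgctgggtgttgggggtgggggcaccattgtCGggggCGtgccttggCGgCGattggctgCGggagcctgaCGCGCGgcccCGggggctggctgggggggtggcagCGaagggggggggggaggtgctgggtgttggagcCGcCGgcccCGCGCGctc

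The upstream Adra1b window held 3 CG pairs and 41.6% G and C, the downstream window 22 CG pairs and 72.8%, and the Adrb1 window 24 CG pairs and 74%. Over the 32851 windows of the same length in the table the medians were 6 CG pairs and 52.4% G and C, and 71.0%, 14.8% and 12.0% of windows held at least as many CG pairs as these 3 in turn. On both strands 4 motifs were searched: TGACAG (one site of MEIS factors), TGATTGAT (a site of PBX factors), TGACGTCA (the cAMP response element) and TATAAA (the TATA box). None of them occurred in these 3 windows, and 19.2%, 0.746%, 1.79% and 13.6% of the 32851 windows held them. The absence of these letters from a window says nothing of whether a factor binds there. The reads do not tell which Adra1b start was used, since the values count the whole gene.

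Adra1b (ENSMUSG00000050541; GRCm38 chromosome 11, 43774606 to 43901210, minus strand) encodes the alpha1B receptor, a Gq-coupled subtype that rodent cardiomyocytes carry. In dKO atria it measured 1.11, 2.13, 2.01 and 3.33 CPM, against 7.27, 6.55, 6.08 and 8.68 CPM in control atria. All 4 dKO atria lay below all 4 control atria, and the highest dKO value was little more than 3 CPM. The means were 2.15 ± 0.909 CPM in dKO and 7.15 ± 1.13 CPM in control atria (SD, n = 4 each), so that the dKO level was 30.0% of control, with a difference of log2(CPM + 1) of -1.41 ± 0.20 (SE). In tissue as a whole, fewer cells of a type and less RNA per cell cannot be told apart.

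In dKO ventricles Adra1b measured 5.94, 5.04, 5.12 and 6.27 CPM, against 7.63, 7.92, 9.50 and 9.21 CPM in control ventricles. The groups again did not overlap, but the gap between them was narrower than in atria. The means of 5.59 ± 0.608 CPM in ventricles of dKO embryos and 8.56 ± 0.928 CPM in those of controls (SD, n = 4 each) put the dKO level at 65.3% of control, a log2 difference of -0.54 ± 0.12 (SE). Behind these values stood 48 to 105 reads per dKO ventricle and 150 to 251 reads per control ventricle, and 20 to 66 reads per dKO atrium and 119 to 205 reads per control atrium.

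The order of Adra1b levels was control ventricles, control atria, dKO ventricles and dKO atria. Control ventricles and control atria overlapped, as did control atria (6.08 to 8.68 CPM) and dKO ventricles (5.04 to 6.27 CPM), whereas dKO ventricles lay entirely above dKO atria. Between the chambers of dKO embryos the log2 difference, ventricle minus atrium, was 1.11 ± 0.16 (SE), and between those of control embryos it was 0.24 ± 0.16 (SE). The dKO effect differed between chambers by 0.87 ± 0.23 (SE; ventricles minus atria, log2), that is, the shortfall was larger in atria.

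**Figure D1:**
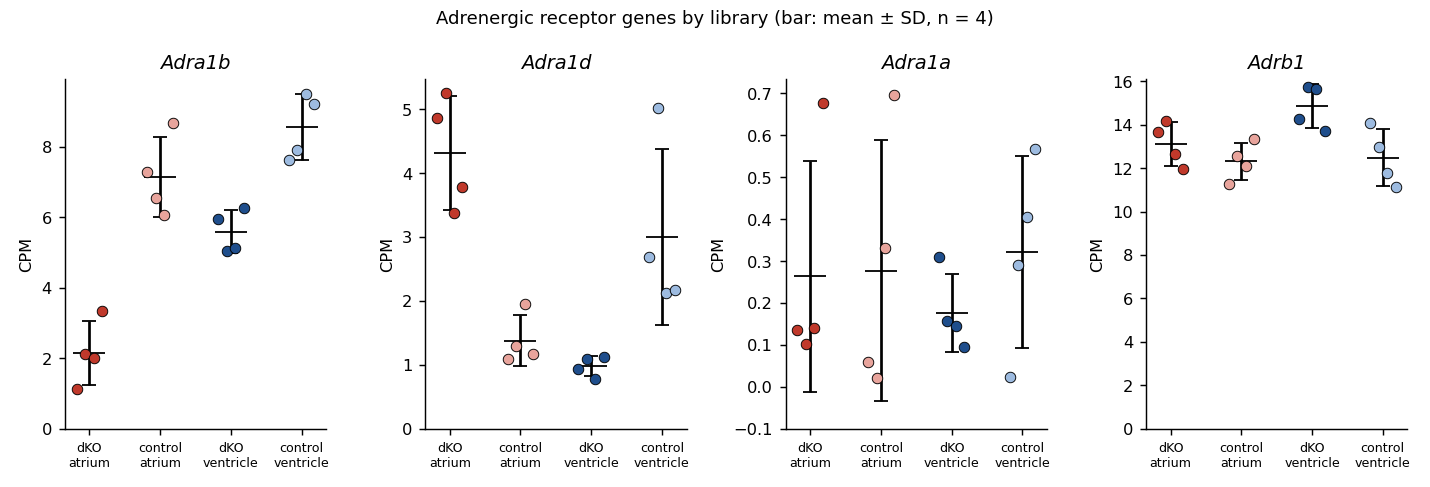
Level in CPM of each receptor gene in every library, in dKO atria, control atria, dKO ventricles and control ventricles from left to right; points are libraries, horizontal bars means and whiskers the SD (n = 4 each). Adra1b lies between 1.11 and 3.33 CPM in dKO atria and between 6.08 and 8.68 CPM in control atria, Adra1d is high in dKO atria and control ventricles, and the vertical scales differ between panels.

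Adra1d (ENSMUSG00000027335; GRCm38 chromosome 2, 131545850 to 131562283, minus strand) encodes the alpha1D receptor, a Gq-coupled subtype best known from the smooth muscle of arteries. Its direction turned with the chamber. In dKO atria it measured 4.87, 5.24, 3.37 and 3.78 CPM, against 1.10, 1.3, 1.96 and 1.16 CPM in control atria. Every dKO atrium was above every control atrium, and the means of 4.31 ± 0.885 CPM in dKO and 1.38 ± 0.395 CPM in control atria (SD, n = 4 each) differed 3.13-fold, with a log2 difference of 1.16 ± 0.17 (SE).

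In dKO ventricles Adra1d measured 0.929, 1.09, 0.781 and 1.11 CPM, against 2.68, 5.02, 2.12 and 2.18 CPM in control ventricles. Every dKO ventricle was below every control ventricle, and control embryo 2, at 5.02 CPM, stood above the other 3 controls. The dKO mean was 0.979 ± 0.155 CPM and the control mean 3.0 ± 1.37 CPM (SD, n = 4 each), so that the dKO level was 32.6% of control, with a log2 difference of -0.96 ± 0.21 (SE). Without control embryo 2 the difference was -0.75. The dKO ventricle values rest on only 10 to 17 reads per library, against 44 to 95 reads in control ventricles, 75 to 129 in dKO atria and 27 to 38 in control atria.

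The order of Adra1d levels was dKO atria, control ventricles, control atria and dKO ventricles. Control ventricles overlapped with dKO atria, and dKO ventricles with control atria, but between control ventricles and control atria the values did not overlap. The chamber difference therefore had opposite signs in the genotypes: ventricle minus atrium was -1.41 ± 0.19 (SE, log2) in dKO embryos and 0.71 ± 0.19 (SE) in control embryos. The dKO effect in ventricles minus that in atria was -2.12 ± 0.27 (SE), with every dKO atrium above and every dKO ventricle below its controls. The exons of Adra1d overlap Gm14285 on the opposite strand, and whether reads were counted by strand is not given in the sources used here.

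Since Adra1b and Adra1d moved against each other in atria, their ratio was taken per kilobase of exon (3.382 kb for Adra1b and 1.899 kb for Adra1d). Adra1d exceeded Adra1b in every dKO atrium, with ratios of 7.78, 4.39, 2.98 and 2.02, against 0.268, 0.354, 0.574 and 0.238 in control atria. In ventricles the ratios were 0.279, 0.386, 0.272 and 0.316 in dKO embryos, against 0.626, 1.13, 0.397 and 0.421 in control embryos. Adra1b was thus the larger alpha1 transcript in 11 of the 12 other libraries, control ventricle 2 being the exception. The ratio lay higher in dKO than in control atria with no overlap, which follows from the separation of both genes there and adds nothing to it. In ventricles the ratio lay lower in dKO embryos, but the groups nearly touched. The highest dKO ventricle ratio was 0.386 and the lowest control ventricle ratio 0.397. The dKO ventricle ratios rest on only 10 to 17 reads of Adra1d per library.

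The sum of Adra1a, Adra1b and Adra1d, in CPM per kilobase, was 2.38 to 3.40 in dKO atria, against 2.63 to 3.26 in control atria, so that the ranges overlapped. In ventricles the sum was 1.94 to 2.45 in dKO embryos, against 3.67 to 5.02 in control embryos, with no overlap. In dKO atria the composition of the alpha1 transcripts differed. Their sum lay below the control range in 1 library, above it in 1 and within it in the others. In dKO ventricles Adra1b and Adra1d were both lower, and Adra1a overlapped.

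**Figure D2:**
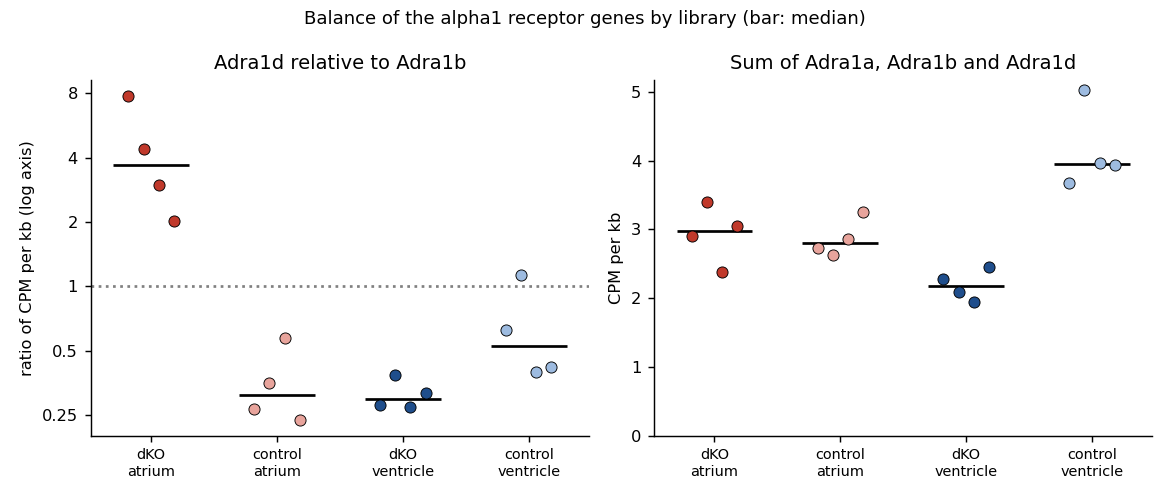
Left, ratio of Adra1d to Adra1b in CPM per kilobase of exon on a log axis; right, sum of the 3 alpha1 receptor genes in CPM per kilobase; points are libraries, horizontal bars group medians, the dotted line a ratio of 1. The ratio is 2.02 to 7.78 in dKO atria and 0.238 to 0.574 in control atria, and the sum is lower in dKO than in control ventricles.

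Adra1a (ENSMUSG00000045875; GRCm38 chromosome 14, 66635251 to 66771168, plus strand) encodes the alpha1A receptor, which adult mouse cardiomyocytes carry beside alpha1B. It was barely detected at this depth. The dKO atria held 2, 2, 3 and 13 reads, against 1, 0, 6 and 16 reads in control atria. The dKO ventricles held 5, 1, 2 and 1 reads, against 0, 5, 8 and 15 reads in control ventricles. In 9 of the 16 libraries the gene was thus at or below 3 reads, the floor used here, which corresponds to 0.110 to 0.312 CPM. Its levels ranged from 0.0221 to 0.697 CPM and overlapped in every comparison, and a gene without reads is listed slightly above 0 in these values. It was below the filter of 1 CPM and no difference was fitted.

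Adrb1 (ENSMUSG00000035283; GRCm38 chromosome 19, 56722199 to 56733113, plus strand) encodes the beta1 receptor. It measured 13.7, 14.2, 12.7 and 11.9 CPM in dKO atria, against 11.3, 12.6, 12.1 and 13.3 CPM in control atria. In dKO ventricles it measured 14.3, 15.7, 15.7 and 13.7 CPM, against 14.1, 13.0, 11.8 and 11.1 CPM in control ventricles. The groups overlapped in both chambers, in atria broadly and in ventricles only through control embryo 1. The means were 13.1 ± 0.997 CPM in dKO and 12.3 ± 0.866 CPM in control atria, and 14.8 ± 1.01 CPM in ventricles of dKO embryos and 12.5 ± 1.3 CPM in those of controls (SD, n = 4 each). The log2 differences were 0.08 ± 0.09 (SE) in atria and 0.24 ± 0.10 (SE) in ventricles, and their difference, ventricles minus atria, was 0.15 ± 0.12 (SE).

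The order of Adrb1 levels was dKO ventricles, dKO atria, control ventricles and control atria, and every neighbouring pair overlapped. The chamber difference, ventricle minus atrium, was 0.17 ± 0.08 (SE) in dKO and 0.02 ± 0.08 (SE) in control embryos, where its sign was negative by TMM, edgeR and DESeq2. Per kilobase of exon Adrb1 was the most abundant of the 4 genes, with a mean over the 16 libraries of 3.90 CPM per kilobase, followed by Adra1b at 1.73, Adra1d at 1.27 and Adra1a at 0.0297. Within dKO atria the order of the alpha1 genes was different, with Adra1d at 2.27 ± 0.466 and Adra1b at 0.634 ± 0.269 CPM per kilobase (SD, n = 4).

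**Figure D3:**
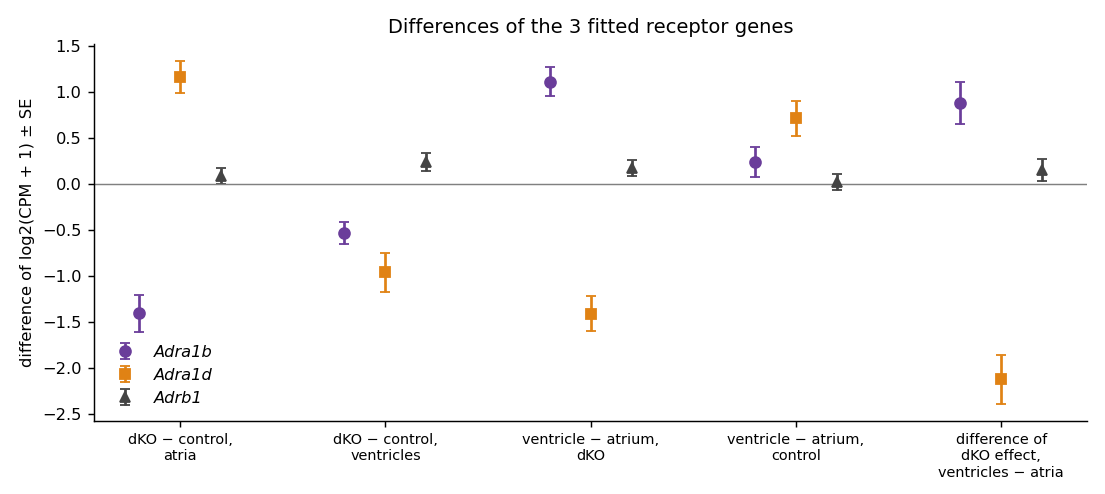
Difference of log2(CPM + 1) with its SE for Adra1b, Adra1d and Adrb1 in 5 comparisons, from left to right dKO minus control in atria and in ventricles, ventricle minus atrium in dKO and in control embryos, and the dKO effect in ventricles minus that in atria. The comparisons share libraries; Adra1b is below 0 in both chambers, Adra1d is at 1.16 in atria and -0.96 in ventricles, and Adrb1 stays within 0.24 of 0.

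Read against all genes, limma calls (Benjamini-Hochberg adjusted p under 0.05) took in 2 of the 3 fitted receptor genes in atria, Adra1d higher and Adra1b lower, where 7.47% of 13950 genes were called, 4.04% higher and 3.43% lower. In ventricles the same 2 were called, both lower, where 2.0% of genes were called, 0.989% higher and 1.01% lower. Between chambers 2 were called in dKO embryos (49.1% of all genes) and 1, Adra1d, in control embryos (46.9%). The difference of the dKO effect was called for 2, Adra1b and Adra1d (2.64% of all genes, 1.31% higher and 1.33% lower in ventricles minus atria). Groups did not overlap for 2 of the 3 in dKO against control atria (14.1% of all genes), 2 in ventricles (8.11%), 2 between chambers of dKO embryos (39.3%) and 1 between those of control embryos (43.3%). The genes were selected on these values, so these counts carry no weight as evidence.

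Not all of these calls were stable. The Adra1b call in ventricles was lost when any 1 of the 8 embryos was left out, with log2 differences of -0.58 to -0.49. The Adra1d call in ventricles was lost in 6 of the 8 fits, holding only without control embryo 3 or 4, with values of -1.07 to -0.75. The Adra1b call for the difference of the dKO effect was lost in 7 of 8, holding only without dKO embryo 4, with values of 0.67 to 0.99. It was also lost in 5 of 8 other alternatives. Both atrial calls and the Adra1d call for the difference of the dKO effect held in all 8. Within the title number that covers 2 embryos of each genotype, the log2 differences were -1.37 for Adra1b and 1.25 for Adra1d in atria, and -0.53 for Adra1b and -1.29 for Adra1d in ventricles. Both atrial calls held there, and both ventricular calls were lost, as they also were with title number as a block. All these fits reuse the values on which the genes were chosen, so a call that held adds no independent evidence.

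Markers of cell types that carry alpha1 receptors were read beside these genes, as the mean log2(CPM + 1) of a list. The smooth muscle and pericyte list (11 of 11 genes listed, none near 0 reads) ranged from 5.37 to 5.85 in dKO atria and from 5.36 to 5.50 in control atria (difference 0.21, two-sided exact permutation p = 0.0857, adjusted over 22 list comparisons 0.251), with 4 genes called higher (Acta2, Cspg4, Myh11 and Pdgfrb) and 1 lower (Abcc9). Acta2 averaged 838 CPM in dKO and 446 CPM in control atria, Cspg4 33.2 and 13.9 CPM, and Myh11 15.3 and 7.56 CPM. The channel subunit Abcc9 averaged 39.1 CPM in dKO and 85.7 CPM in control atria. By DESeq2 6 genes of the list were called higher in dKO atria and 2 lower, Abcc9 and Kcnj8. At an unadjusted limma p under 0.05, 6 were higher and 3 lower, Abcc9, Kcnj8 and Mylk. In control ventricles Acta2, Cspg4 and Abcc9 averaged 1346, 91.5 and 170 CPM, above control atria, and Myh11 1.86 CPM, below them. The genes of this list thus did not share a common chamber pattern, and none was shown here to mark a single cell type. In ventricles, where Adra1d was lower, this list ranged from 5.69 to 6.09 in dKO and from 5.82 to 6.01 in control embryos, with 0 of 11 genes called by limma or edgeR, 1 by DESeq2 and 2 at an unadjusted limma p under 0.05. The part of these cells in the Adra1d values was not tested.

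The cardiomyocyte list ranged from 10.2 to 10.5 in dKO and from 10.4 to 10.8 in control atria (difference -0.21, exact permutation p = 0.171), with 1 of 8 genes called lower, and it differed by -0.01 in ventricles (exact p = 0.886). The ventricular myocyte list was lower in dKO than in control libraries without overlap, at 3.61 to 3.87 against 4.25 to 4.70 in atria and at 8.22 to 8.31 against 8.51 to 8.63 in ventricles (exact p = 0.0286 each, adjusted 0.157), with 3 of 6 genes called lower in each chamber. The part of these lists in the Adra1b values was not tested. The autonomic neuron list, which shares Th and Dbh with the catecholamine genes given further on, was low, with Th, Dbh, Elavl3 and Chrna3 below a mean of 1 CPM, and ranged from 0.554 to 2.14 in dKO and from 0.710 to 2.83 in control atria, with 0 of 5 tested genes called by limma, edgeR or DESeq2, or at an unadjusted limma p under 0.05. The endothelial list was higher in dKO than in control atria without overlap, at 6.92 to 7.22 against 6.85 to 6.90 (difference 0.19, exact p = 0.0286, adjusted 0.157), with 2 of 7 genes called higher and 1 lower. The fibroblast list ranged from 7.75 to 8.41 in dKO and from 7.59 to 7.92 in control atria (0.37, exact p = 0.0857), with Dcn and Tcf21 called higher. In ventricles these 2 lists differed by -0.01 and -0.03. The atrial myocyte list was higher in dKO than in control ventricles without overlap, at 5.80 to 5.96 against 5.34 to 5.66 (0.36, exact p = 0.0286, adjusted 0.157), with Nppa and Myl4 called higher. Their part in the receptor values was not tested. Of the 22 list comparisons, 4 had an unadjusted exact permutation p under 0.05 and 0 an adjusted one.

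Of the other adrenergic receptor genes, Adra2b and Adrb3 had means of 0.444 and 0.388 CPM over the 16 libraries and were not tested. Adra2b, an alpha2 receptor that couples to Gi, averaged 0.636 ± 0.361 CPM in dKO and 0.706 ± 0.122 CPM in control atria, and 0.181 ± 0.122 CPM in ventricles of dKO embryos and 0.254 ± 0.116 CPM in those of controls (SD, n = 4 each), with overlap in both chambers. Adra2a and Adra2c were not listed under these names in the deposited values, so they could not be examined.

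The genes that supply and relay the adrenergic signal were taken from 9 lists of 111 names, of which 108 were listed and 95 tested. In dKO atria 8 rose and 12 fell, where 7.47% of all genes were called, and in dKO ventricles 3 rose and 3 fell, where 2.0% were called. The median log2 difference of the lists was -0.00 in atria and -0.01 in ventricles, against -0.00 and -0.02 over all 13950 genes. The dKO effect differed between chambers for 9 of them, 6 higher and 3 lower in ventricles minus atria. Over all genes 2.64% were called for this difference, 1.31% higher and 1.33% lower. The lists were chosen with earlier results of these data known, so these counts carry no weight as evidence. The split of the calls moved with the fit. In ventricles 4 of 6 were higher by edgeR and 8 of 11 by DESeq2, in atria 12 of 26 by DESeq2 and 14 of 27 with all 16 libraries and the embryo block, and for the difference 7 of 9 by edgeR. The atrial count went down to 13 without control embryo 2, the ventricular count to 2 without control embryo 1 or dKO embryo 3 and to 3 without control embryo 4 or dKO embryo 4, and the count for the difference to 5 without control embryo 2. The text names every gene called in the genotype comparisons, all with adjusted p-values by limma over all genes.

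Among genes of catecholamine synthesis, transport and breakdown, 1 of 7 tested was called in atria, and 0 in ventricles by limma, edgeR or DESeq2 or at an unadjusted limma p under 0.05. Ddc, the decarboxylase that makes dopamine, fell to 3.55 ± 0.864 CPM in dKO atria, against 7.18 ± 1.71 CPM in control atria (SD, n = 4; log2 -0.84 ± 0.19 SE, limma adjusted p = 0.0195). Ddc was mainly a ventricular transcript, at 96.8 ± 21.5 CPM in ventricles of dKO embryos and 117 ± 19.3 CPM in those of controls (log2 -0.28, adjusted p = 0.508). Its atrial call was lost without control embryo 2, 3 or 4 or dKO embryo 2 (log2 -1.0 to -0.75 over the fits without 1 embryo) and within the title number with 2 embryos of each genotype (-0.50). Th, the rate-limiting hydroxylase, and Dbh, which makes noradrenaline, had means of 0.362 and 0.927 CPM and were not tested.

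Of 8 tested G protein alpha subunits, 2 rose in dKO atria and 1 in dKO ventricles. Gnao1, the Go subunit, rose to 203 ± 12.7 CPM in dKO atria, against 136 ± 2.59 CPM in control atria (log2 0.57, limma adjusted p = 0.000104), and to 40.2 ± 2.28 CPM in dKO ventricles, against 32.6 ± 2.04 CPM in control ventricles (0.29, adjusted p = 0.039). Gnai2, a Gi subunit that inhibits adenylyl cyclase, rose in dKO atria by 0.24 (adjusted p = 0.0147) and was not called in ventricles (-0.13, adjusted p = 0.185), and the dKO effect differed between chambers (-0.37, adjusted p = 0.000966). The Gnai2 call in atria was lost without control embryo 2 or dKO embryo 3. Among the fits without 1 embryo, the Gnao1 call in ventricles held only without control embryo 2 or dKO embryo 2. It was also lost with no filter, with title number as a block and within the title number with 2 embryos of each genotype (0.17).

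The subunits directly below the receptors were not called by limma or edgeR, while DESeq2 called Gnas higher in dKO atria. Gnas, the Gs subunit below Adrb1, was at 1498 ± 23.0 CPM in dKO and 1328 ± 13.5 CPM in control atria, without overlap (log2 0.17, limma adjusted p = 0.135), and -0.02 was its log2 difference in ventricles (adjusted p = 0.935). Gnaq and Gna11, the Gq family subunits below the alpha1 receptors, differed by 0.02 and 0.14 in atria (adjusted p = 0.888 and 0.193) and by 0.00 and 0.03 in ventricles (adjusted p = 0.998 and 0.871). Gnas, Gnaq and Gna11 were picked for their place below the receptors, outside the naming rule.

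Of 8 tested adenylyl cyclases, 2 fell in dKO atria, and 0 were called in ventricles by limma, edgeR or DESeq2 (1, Adcy5, at an unadjusted limma p under 0.05). Adcy1, a calcium-stimulated cyclase, fell to 31.3 ± 4.92 CPM in dKO atria, against 55.2 ± 4.44 CPM in control atria (log2 -0.81, limma adjusted p = 0.000665). It was low in ventricles of both genotypes, at 5.61 ± 0.754 CPM in dKO and 5.11 ± 0.881 CPM in control embryos (0.12, adjusted p = 0.799). Adcy5, a main cyclase of the adult myocardium, fell to 107 ± 7.42 CPM in dKO atria, against 162 ± 12.9 CPM in control atria (-0.60, adjusted p = 0.000352), with -0.16 in ventricles (adjusted p = 0.263). The effect differed between chambers for both, by 0.93 for Adcy1 (adjusted p = 0.00204) and 0.44 for Adcy5 (adjusted p = 0.0103).

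Of 12 tested phosphodiesterases that break down cAMP, 3 fell and 1 rose in dKO atria. Pde4a fell to 9.35 ± 0.631 CPM in dKO atria, against 26.2 ± 1.68 CPM in control atria (log2 -1.39 ± 0.08 SE, limma adjusted p = 2.94e-06), while in ventricles it was at 13.5 ± 0.862 CPM in dKO and 14.9 ± 0.312 CPM in control embryos (-0.13, adjusted p = 0.563). The difference of the dKO effect, ventricles minus atria, was 1.27 (adjusted p = 7.27e-07). Pde3b fell in both chambers, to 24.1 ± 2.28 CPM in dKO atria, against 45.9 ± 1.45 CPM in control atria (-0.91, adjusted p = 2.63e-05), and to 27.8 ± 0.777 CPM in dKO ventricles, against 35.9 ± 2.12 CPM in control ventricles (-0.36, adjusted p = 0.0087). Its atrial effect was the larger (difference 0.55, limma adjusted p = 0.000894). The ventricular Pde3b call was lost within the title number with 2 embryos of each genotype.

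Pde4b rose in dKO atria by 0.50 (limma adjusted p = 0.00412), to 48.7 ± 4.78 CPM in dKO atria, against 34.2 ± 2.70 CPM in control atria. Pde2a, the phosphodiesterase that cGMP activates, fell to 3.21 ± 2.23 CPM in dKO atria, against 10.2 ± 4.18 CPM in control atria (-1.50, adjusted p = 0.0264), but its exons overlap Gm45837 on the same strand. The Pde2a call was lost without control embryo 1 or 2 or dKO embryo 2 or 3 (-1.82 to -1.18 over the fits without 1 embryo). It was also lost by edgeR on recovered reads, with no filter, and with all 16 libraries and the embryo block.

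Among 20 tested genes of protein kinase A, its anchors and other cAMP effectors, 2 rose and 1 fell in dKO atria. Bves, which encodes a cAMP-binding Popeye domain protein of the muscle membrane, rose in both chambers, to 149 ± 10.5 CPM in dKO atria, against 113 ± 7.89 CPM in control atria (log2 0.40, limma adjusted p = 0.00458), and to 333 ± 14.7 CPM in dKO ventricles, against 280 ± 10.1 CPM in control ventricles (0.24, adjusted p = 0.0141). Akap12, an anchor of protein kinase A and beta receptors, rose in dKO atria by 0.41 (adjusted p = 0.0175), and Prkar2b, a regulatory subunit, fell by 0.34 on the log2 scale (adjusted p = 0.0498). The Prkar2b call held in 1 of 8 fits without an embryo, that without control embryo 4, and was lost in 5 of 10 other alternatives. The Akap12 call was lost without control embryo 2 or 4 or dKO embryo 3, and the ventricular Bves call without control embryo 1 or 2 or dKO embryo 3.

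Of 12 genes for myocyte proteins that protein kinase A acts on or for their partners, 3 fell in dKO atria and 2 in dKO ventricles by limma. The count higher was 0 in each chamber by limma and edgeR and 1 by DESeq2, and at an unadjusted limma p under 0.05 it was 1 in atria and 2 in ventricles. Kcnq1, a repolarizing potassium channel, and Cacna1c, the pore of the L-type calcium channel, fell in both chambers, by 1.10 and 0.72 on the log2 scale in atria (limma adjusted p = 0.000406 and 0.000259) and by 0.47 and 0.28 in ventricles (adjusted p = 0.00337 and 0.0301). Pln, phospholamban, the inhibitor of the calcium pump, fell in dKO atria by 0.42 (adjusted p = 0.0455), with overlapping groups. Among the fits without 1 embryo, the Pln call held only without control embryo 1 or dKO embryo 1. The ventricular Cacna1c call held only without control embryo 2 or dKO embryo 1. With no filter and by edgeR both calls were also lost. The Cacna1c call was lost as well with all 16 libraries and the embryo block. Within the title number with 2 embryos of each genotype, the ventricular calls of Cacna1c and Kcnq1 were lost. Kcnq1 shares exons with its antisense transcript Kcnq1ot1, and Pln with Cep85l and Gm47644 on the opposite strand, so their reads cannot be told apart without a stated use of strand. The same holds for Gnao1, Gnas, Plcb1, Prkca and Rgs6, whose exons overlap other genes on the opposite strand.

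Of 12 tested receptor kinases, arrestins and RGS proteins, which switch receptors and G proteins off, 1 rose and 1 fell in dKO atria and 1 rose in dKO ventricles. Grk5, a receptor kinase that desensitizes beta receptors, rose to 24.4 ± 4.12 CPM in dKO atria, against 15.51 ± 0.811 CPM in control atria (log2 0.61, limma adjusted p = 0.00544). In ventricles it was at 19.02 ± 0.852 CPM in dKO and 25.0 ± 5.45 CPM in control embryos (-0.35, adjusted p = 0.261), and the effect differed between chambers (-0.97, adjusted p = 0.00308). Grk3 fell in dKO atria by 0.62 (limma adjusted p = 0.0357). Among the fits without 1 embryo, the Grk3 call held only without dKO embryo 1 or 3, and it was also lost with no filter. Rgs6, which speeds the shut-off of Gi and Go, rose to 22.8 ± 2.66 CPM in dKO ventricles, against 16.9 ± 1.08 CPM in control ventricles (0.41, limma adjusted p = 0.0432). Among the fits without 1 embryo, the Rgs6 call held only without dKO embryo 2. It was also lost with no filter, with title number as a block and within the title number with 2 embryos of each genotype.

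In the Gq arm, which the alpha1 receptors feed, 2 of 16 tested genes rose and 1 fell in dKO atria. In ventricles 0 were called by limma or edgeR, 1 (Plcb4) by DESeq2 and 7 at an unadjusted limma p under 0.05. Plcb1 and Plcb4, phospholipase C enzymes that Gq activates, rose to 13.9 ± 1.86 and 66.8 ± 6.09 CPM in dKO atria, against 7.73 ± 1.04 and 45.2 ± 2.16 CPM in control atria (log2 0.77 and 0.55, limma adjusted p = 0.00295 and 0.000853). Prkca, the main conventional protein kinase C of cardiomyocytes, fell to 21.6 ± 1.69 CPM in dKO atria, against 31.2 ± 3.6 CPM in control atria (-0.51, adjusted p = 0.00612). In ventricles these 3 measured 0.17, 0.20 and -0.26 on the log2 scale (adjusted p = 0.684, 0.0958 and 0.338), and the effect differed between chambers for Plcb4 (-0.35, adjusted p = 0.0264).

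**Figure D4:**
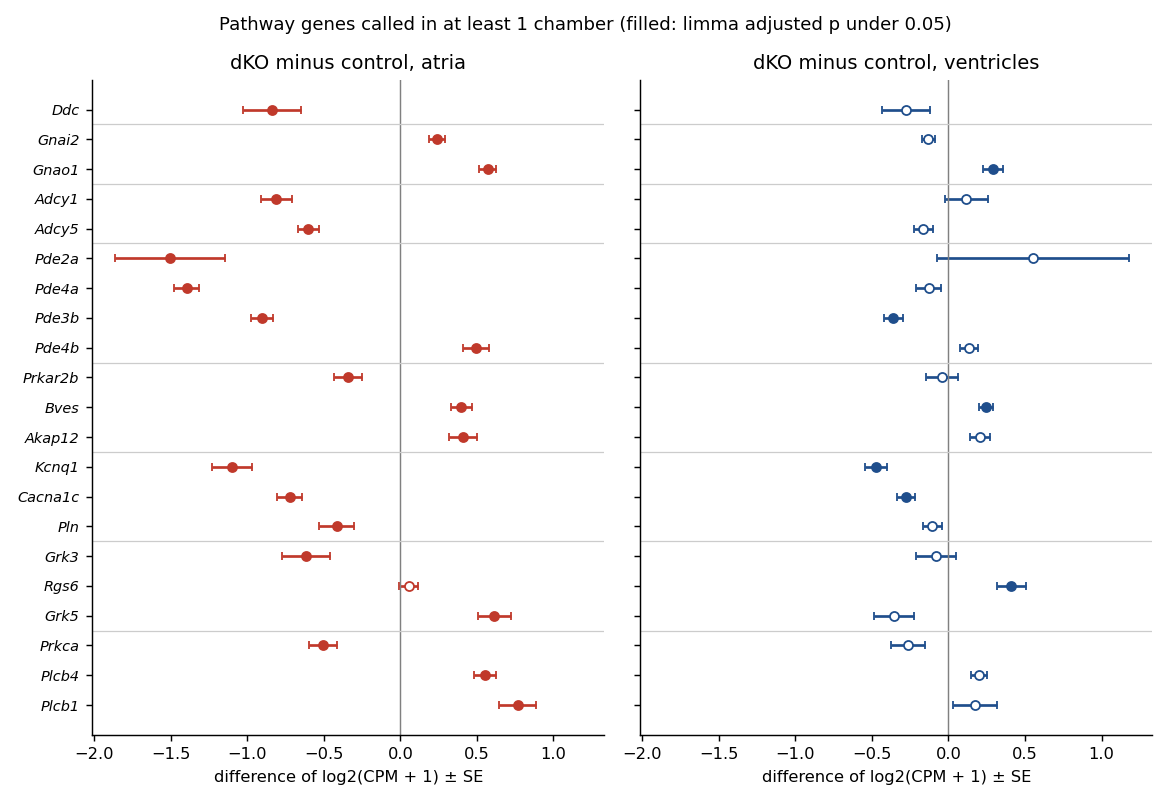
Difference of log2(CPM + 1), dKO minus control, with its SE, for the pathway genes called in at least 1 chamber; atria left, ventricles right, filled points for a limma adjusted p under 0.05, grey lines between lists in the order of the text. In atria the points run from -1.50 (Pde2a) to 0.77 (Plcb1), and 6 are filled in ventricles.

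The genes whose levels ran most like each receptor gene over the 16 libraries, all of which share the same 4 groups, are given as a description. For Adra1b they were Ier3, an immediate early gene (Pearson r = 0.955), Msra, a methionine sulfoxide reductase (0.952), Asb2, a ubiquitin ligase subunit (0.940), Anxa11, an annexin (0.939), and Dgkk, a diacylglycerol kinase (0.926). Dgkk averaged 6.40 CPM in dKO atria, 36.6 CPM in control atria, 17.6 CPM in dKO ventricles and 36.4 CPM in control ventricles, and Asb2 133, 236, 227 and 283 CPM in the same order. For Adra1d they were Ephb3, an ephrin receptor (0.855), Slx4, a scaffold of DNA repair nucleases (0.832), Yipf3 (0.790), Rgma, a guidance molecule and BMP co-receptor (0.760), and Fam3c, a secreted protein (0.754). Ephb3 averaged 44.3 CPM in dKO atria, 33.5 CPM in control atria, 28.9 CPM in dKO ventricles and 38.8 CPM in control ventricles, which puts the group means in the same order as those of Adra1d.

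For Adrb1 the most alike were Cebpz (0.834), Zfp623 (0.815), Pcgf5, a Polycomb subunit (0.781), Zbtb41 (0.768) and Zbtb24 (0.765). The correlations were lower for Adrb1 and Adra1d than for Adra1b, whose range over the libraries was wider than that of Adrb1. Among the receptor genes themselves r was -0.54 between Adra1b and Adra1d, -0.27 between Adra1b and Adrb1 and -0.19 between Adra1d and Adrb1.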

How the data were processed

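RNA was measured in 16 libraries, 4 dKO and 4 control embryos with both chambers each. Per the labels' protocols, 20 ng of total RNA per library was selected for poly(A) and read as single 60-base reads. Per the submitters' processing notes, the authors used cutadapt, RSEM 1.3.1 and GRCm38. They deposited normalized counts in CPM. Not given in the sources used here are the normalization method, gene filter, annotation release and strand setting. Each value was the sum of a whole read number and 0.5, multiplied by 1 step per library (100% of values, tolerance 0.001), so reads were recovered.

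The 13950 genes whose mean reached 1 CPM were fitted on log2(CPM + 1) with limma 3.58.1 (R 4.3.3), trend, two-sided, Benjamini-Hochberg over all genes, called under 0.05. This scale understates changes of low genes. Genotypes were compared within a chamber over 8 libraries. Chamber differences, and the difference of the dKO effect, used all 16 with embryo as a block, since the same animal gave both chambers (consensus correlation 0.108). Embryos of different genotype were not paired, and replicate numbers follow the order of the records. Alternatives were pseudocounts of 0.5 and 5, no filter or 5 CPM, TMM, edgeR 4.0.16 and DESeq2 1.42.0 on recovered reads, title number as a block or only the one with 2 embryos of each genotype, the embryo block changed, and each embryo left out. The tests were also run on simulated counts, which were drawn without an embryo effect, so those runs say nothing of the embryo block. The receptor genes and lists were chosen with earlier results of these data known. The rule named, per list and chamber, up to 4 called genes with the smallest adjusted p, and per receptor gene the 5 most correlated genes. Exon lengths and coordinates are from GENCODE M21. Replicates differed by 6.47 to 25.7 times counting variance (24 pairs), so counting error was the smaller part over all genes but not necessarily for genes with few reads. Of the listed pathway genes, 1 is not reported here.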

Additional observations from a re-analysis of the deposited data

Results flagged for a closer look

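A library stood apart from the other 3 of its group in 4 of 100 groups examined (25 genes in 4 groups each), by Dixon's criterion at 95%, which chance meets in about 1 group in 20. Adra1a was highest at 0.676 CPM in 1 dKO atrium, against 0.101 to 0.140 CPM in the others. Pde2a was highest at 16.4 CPM in 1 control atrium, against 7.50 to 8.79 CPM. Pde4b was lowest at 41.6 CPM in 1 dKO atrium, against 50.6 to 52.1 CPM. Pln was highest at 154 CPM in 1 dKO atrium, against 118 to 119 CPM.

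The dKO effect on Adra1d went in opposite directions in the chambers, with a difference of -2.12 (log2, ventricles minus atria). The gene was chosen on these values, so the difference is given as a description and was not tested independently of that choice. Among the 95 pathway genes tested, the difference of the dKO effect passed the limma test over all genes (adjusted p) for 9, where 2.64% of all genes passed. It was higher in ventricles minus atria for Pde4a (1.27, adjusted p = 7.27e-07), Adcy1 (0.93, 0.00204), Kcnq1 (0.63, 0.0172), Pde3b (0.55, 0.000894), Cacna1c (0.45, 0.0178) and Adcy5 (0.44, 0.0103). It was lower for Grk5 (-0.97, 0.00308), Gnai2 (-0.37, 0.000966) and Plcb4 (-0.35, 0.0264).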

How the results depend on the processing

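No called value changed sign. Adrb1, ventricle minus atrium in control embryos, which was not called (0.02), was -0.02 with TMM and DESeq2, -0.03 by edgeR and -0.08 without control embryo 1. For the receptor differences and the counts of pathway calls, 264 of 299 values under the alternatives moved by less than the spread or, for counts, by less than 1.5 times. With a pseudocount of 5 the log2 differences shrank: in dKO minus control, Adra1b -0.77 and Adra1d 0.54 in atria and Adra1d -0.41 in ventricles; in ventricle minus atrium, Adra1b 0.57 and Adra1d -0.64 in dKO and Adra1d 0.31 in control embryos; in the difference of the dKO effect, Adra1b 0.41 and Adra1d -0.95 (-2.54 with 0.5). On recovered reads, without a pseudocount, they grew by edgeR and DESeq2: in atria, Adra1b -1.74 and -1.75 and Adra1d 1.66 and 1.67; in ventricles, Adra1d -1.64 and -1.65; between chambers, Adra1b 1.41 and 1.42 and Adra1d -2.19 and -2.20 in dKO and Adra1d 1.04 and 1.05 in control embryos; in the difference, Adra1b 1.19 and 1.14 and Adra1d -3.23 and -3.32. With only the title number that covers 2 embryos of each genotype, Adra1d in ventricles was -1.29. Pathway calls in ventricles (6) numbered 3 with no filter, 11 by DESeq2 and 1 with that title number only; the cause was not tested. Without 1 embryo each, pathway calls numbered 13 to 22 in atria (20 with all), 2 to 5 in ventricles and 5 to 11 for the difference (9). With title number as a block, whose meaning the labels do not give, Adra1b and Adra1d were -1.19 and 1.12 in atria, and in ventricles -0.52 and -1.0, no longer called; pathway calls numbered 25 and 5. The difference of the dKO effect was no longer called for Adra1b in 5 of 8 alternatives: a pseudocount of 5, no filter, a minimum of 5 CPM, edgeR, and without the embryo block (no replicate block), where the value of 0.87 was unchanged. The ventricular call of Adra1b was also lost with no filter, by edgeR and with all 16 libraries in the fit, and that of Adra1d with a pseudocount of 5 and with no filter. With a minimum of 5 CPM Adra1d was not fitted. Over all genes, calls in atria numbered 1042, 1031 by edgeR and 1546 by DESeq2, and in ventricles 279, 259 by edgeR, 469 by DESeq2 and 79 with that title number only. Depth limits Adra1a, which lay at or under 3 reads in 9 of 16 libraries, and the dKO ventricles, which were the shallowest.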
